A study of Brassica napus with 12 samples.

Results

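The comparison set the H3K4me3 peaks of seedlings against those of siliques (seed pods) of HZ62, a hybrid of *Brassica napus*, and used the 2 libraries of each tissue out of 12 libraries in the series. Members were chosen by sample and not by any measured value. The 4 peak lists held 183453 of the 402642 peaks of the series and joined into 51029 regions where peaks overlapped by 1 bp or more, against 51928 regions when flower bud is included. Seedlings were 2 weeks old and are called leaf in the titles of the libraries, and siliques were 3 to 5 cm long. Every group carried the genotype labelled WT and grew under 16 h of light at 22 °C and 8 h of darkness at 18 °C, so no allele or treatment set the tissues apart. About 1 g of material went into each library, and the labels do not say how many plants it came from or whether the libraries of a tissue came from separate plants. P-values therefore cover library-to-library spread alone, and this spread may be technical.

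H3K4me3 is the trimethylated lysine 4 of histone H3. In plants as in animals it is laid down at the starts of transcribed genes by methyltransferases of the Trithorax group, and its level tends to follow their transcription. H3K27me3 is the opposing mark, set by the Polycomb repressive complex, and it keeps developmental genes silent in the tissues that do not use them. A young seedling carries mostly leaf tissue, whereas a silique combines a green pod wall with developing seeds. In such mixed tissue, fewer cells with the mark and less of the mark per cell cannot be told apart.

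Seedling libraries held 8609548 and 10914885 fragments after filtering, and silique libraries 14339594 and 11209471. Fragment sizes were 236 and 246 bp in seedling, and 332 and 248 bp in silique. Silique replicate 1 thus stood apart as the deepest library with the longest fragments, and results that rest on it are given with and without it. The titles number the seedling libraries 53 and 54 and give the silique and flower bud libraries much later numbers, so seedling and an early place in this numbering cannot be told apart. Positions are given 1-based on the numbered sequences of the files, whose genome build is not given in the sources used here. Without an annotation of that build, regions carry no gene names, and the tissues were not checked against marker genes.

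Seedling lists were longer, and silique replicate 1 had the widest peaks. The lists held 47545 and 48825 peaks in seedling, and 43010 and 44073 in silique. The groups did not overlap, with 48185 ± 905 peaks in seedling and 43542 ± 752 in silique (SD, n = 2 each). The two-sided exact permutation test gave p = 0.333, the smallest that 2 against 2 libraries allow. Median peak width was 643 and 685 bp in seedling, and 865 and 701 bp in silique. All 4 values followed the order of fragment size, and the part of fragment size in them was not tested. Peaks covered 33.6 and 36.6 Mb in seedling, and 40.3 and 33.5 Mb in silique, so the groups overlapped (exact permutation p = 1). The difference was -1.84 Mb with all libraries and 1.56 Mb without silique replicate 1.

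Most regions were marked in both tissues, and seedling had more regions of its own than silique. A peak was called in all 4 libraries at 39725 regions (77.8%). There were 4822 regions with a peak in both seedling libraries and neither silique library, 9.45% of all regions. The other way there were 1508, 2.96% of all regions. Regions shared by 1 library of each tissue and missing from the other libraries numbered 24 to 119 for the 4 possible pairs. Both tissue-restricted counts therefore lay far above what such cross pairs held. Another 2473 regions were called in a single library, 1397 of them in seedling replicate 2, and 2228 in all but one library, 924 of them missing from silique replicate 1.

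The excess of seedling depended on how many peaks each list was allowed. With the 43010 strongest peaks of each list, 2742 regions were restricted to seedling and 2818 to silique, a setting that shortens the seedling lists most. Without silique replicate 1 the counts were 5388 in seedling and 1853 in silique. The excess remained when peaks under 332 bp, the shortest that silique replicate 1 could hold, were left out of all lists, with 3907 in seedling and 1784 in silique.

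The tissue-restricted regions were weak and narrow. Strength is given here as normalized pileup, the fragment coverage at the highest summit of a region divided by the median of that library over the 39725 regions found in all 4. Those medians were 76 and 98 in seedling, and 133 and 100 in silique. The lowest called peak of each list came to 0.171 and 0.153 in seedling, and 0.150 and 0.15 in silique, so the lists reached down to similar levels on this scale. Median normalized pileup was 0.421 and 0.418 at seedling-restricted regions in the seedling libraries, and 0.391 and 0.38 at silique-restricted regions in the silique libraries. The median of shared regions is 1 on this scale by construction. Restricted regions of seedling with a normalized pileup of at least 0.5 in both libraries numbered 1417 (29.4%), and those of silique 367 (24.3%). A value of 1 or more in both libraries was reached by 160 in seedling and 57 in silique. Peak widths at restricted regions had medians of 440.5 and 493 bp in seedling, and 644.5 and 502.5 bp in silique. At shared regions the medians were 680 and 725 bp in seedling, and 884 and 726 bp in silique.

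**Figure D1:**
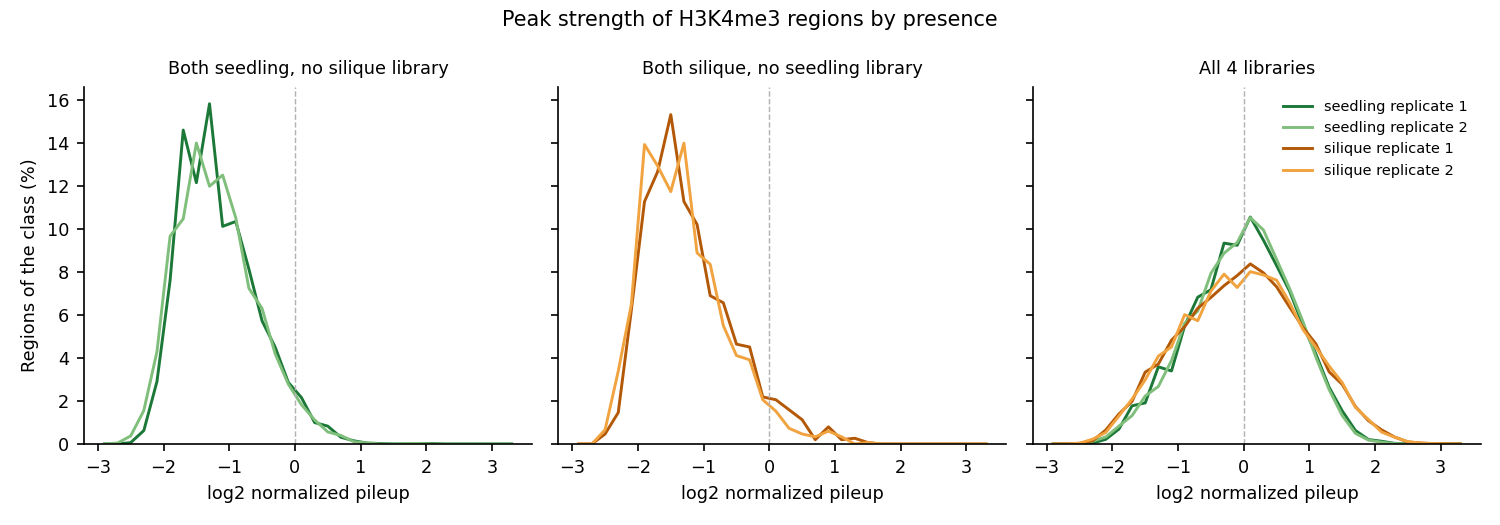
Distribution of log2 normalized pileup (x axis) as a percentage of the regions of each class (y axis), 1 line per library, with the dashed line at the median of shared regions. Restricted regions of either tissue sit around a normalized pileup of 0.4, and at shared regions the silique lines are flatter and wider than the seedling lines.

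The strongest seedling-restricted regions stood above the median shared region in normalized pileup in both seedling libraries, although no peak was called in either silique library. On sequence 2 from 28293635 to 28294417, normalized pileup was 4.28 and 3.59 in the seedling libraries. The authors' fold enrichment over the local control was 21.8 and 19 there, close to the medians of 17.7 and 18.4 at shared regions. Another on sequence 2, from 33173997 to 33175410, had 3.55 and 3.31 with folds of 42.6 and 41.7, and spanned 1323 and 1400 bp. Flower bud lacked a peak there too. On sequence 11, positions 54471788 to 54473084 had 2.25 and 2.14, but folds of 15.6 and 17.8, below those medians. Positions 9244030 to 9245455 of this sequence had 2.09 and 1.87, with folds of 32.4 and 26.7. On sequence 14, positions 16337857 to 16339178 had 2.55 and 1.96, with folds of 56.5 and 45.5. In these 3 places, and in the first region named, both flower bud libraries had a peak. Among all 4822 seedling-restricted regions this held for 1136 (23.6%). Of the 5, the first alone overlapped H3K27me3 in silique, in both silique libraries and in no seedling library.

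Of the 5 strongest silique-restricted regions, 4 carried H3K27me3 in both seedling libraries, against 312 (20.7%) of all 1508. The leading region lay on sequence 2 from 4183292 to 4184812, with a normalized pileup of 2.73 and 2.93 in the silique libraries. It overlapped H3K27me3 in every library of all 3 tissues. The region on sequence 9 from 44472917 to 44474763 had 2.61 and 2.22. On sequence 16 from 35418782 to 35420216 the values were 2.22 and 2.22. On sequence 18 from 53101697 to 53103405 they were 2.28 and 2.07. H3K27me3 marked the regions of sequences 9, 16 and 18 in both seedling libraries and in no silique library. The fifth, on sequence 1 from 8732837 to 8734802, had 1.94 and 2.08 and no H3K27me3 in any library. All of these 5 had H3K4me3 in both flower bud libraries, against 662 (43.9%) of all silique-restricted regions.

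Restricted regions were spread over all 19 long sequences, at uneven rates. Per 100 shared regions of a sequence, seedling-restricted regions ran from 9.35 on sequence 5 to 16.5 on sequence 12. Silique-restricted regions ran from 2.74 on sequence 19 to 5.47 on sequence 5. Sequence 5 was thus lowest for seedling and highest for silique, with 159 and 93 regions. By order and extent, sequences 1 to 10 were assigned to the A subgenome and 11 to 19 to the C subgenome of this allotetraploid. The extents of the 19 sequences correlated with those of the RefSeq Da-Ae chromosomes (n = 19, Pearson r = 0.994, or 0.992 without the 2 farthest, and Spearman rho = 0.991; both permutation tests gave p = 1e-05, the lowest value possible with 100000 permutations). Seedling-restricted regions numbered 11.6 per 100 shared regions on A and 12.6 on C. Silique-restricted regions numbered 4.09 on A and 3.52 on C.

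Regions restricted to one tissue had a neighbour of their own kind more often than shared regions had such a neighbour, a difference that was not tested. The closest other region was also seedling-restricted for 735 of the 4822 (15.2%), against 8.53% for shared regions. For silique-restricted regions the closest was of the same kind in 78 of 1508 (5.17%), against 2.68% for shared regions. The median distance to the nearest shared region was 6030 bp for seedling-restricted and 5556 bp for silique-restricted regions, against 4395 bp between shared regions. Among windows of 100 kb, the one with the most seedling-restricted regions ran from 25600001 to 25700000 on sequence 7 and held 7 of them among 12 regions. The next held 6, on sequence 1 from 26800001 to 26900000 (of 8 regions) and on sequence 2 from 4000001 to 4100000 (of 18 regions), and 4 windows in all reached this count. No window held more than 3 silique-restricted regions, a count found in 20 windows, the first of them on sequence 1 from 30000001, on sequence 2 from 31600001 and on sequence 3 from 21900001. The window of sequence 1 also held 3 seedling-restricted regions.

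At the 39725 shared regions the height of the peaks was highly alike within a tissue and less so between tissues. Across regions, log2 normalized pileup had a Pearson r of 0.959 between the seedling libraries and 0.970 between the silique libraries. Between the tissues r was 0.760 to 0.779. These are descriptions over the same regions, which are not independent, and all libraries share one control. A change of at least 2-fold separated 5 regions within seedling and 12 within silique, but 3458 to 3900 regions between any seedling and any silique library.

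In limma, 8278 shared regions had a higher pileup in seedling and 9860 a lower one at an adjusted p under 0.05. These are 20.8% and 24.8% of the regions tested, 45.7% in all. The log2 difference had a median of -0.06, with 80% of regions between -0.65 and 0.71 and a median SE of 0.14. With a difference of at least 1 on the log2 scale required as well, 1996 regions (5.02%) were higher in seedling and 1329 (3.35%) were lower. At the regions higher by this margin, median normalized pileup was 1.11 and 1.10 in seedling, and 0.414 and 0.42 in silique. At the regions lower by this margin it was 0.566 and 0.561 in seedling, and 1.47 and 1.4 in silique. Leaving out silique replicate 1 gave 6911 higher and 7529 lower, and of these 6529 and 7228 were also called with all libraries.

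The direction of the difference went with the level of the mark. Seedling libraries had a narrower range of peak heights: the SD of log2 normalized pileup was 0.780 and 0.768 in seedling, and 0.928 and 0.930 in silique. Flower bud lay between them over the 37900 shared regions where both of its libraries had peaks. The SD there was 0.760 and 0.747 for seedling libraries, 0.863 and 0.867 for flower bud libraries, and 0.899 and 0.901 for silique libraries. Shared regions were split by mean level into 10 classes of equal size. In the highest class, median normalized pileup was 2.25 and 2.2 in seedling, and 2.81 and 2.83 in silique. There 140 regions were higher in seedling and 2045 lower. In the lowest class the medians were 0.408 and 0.408 in seedling, and 0.368 and 0.36 in silique, with 1304 regions higher and 609 lower. After cyclic loess normalization, which removes a trend with level, 8058 regions (20.3%) were higher and 7636 (19.2%) lower, and no region was called in opposite directions by these scalings. By at least 1 on the log2 scale, 1741 (4.38%) were then higher and 1350 (3.40%) lower.

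**Figure D2:**
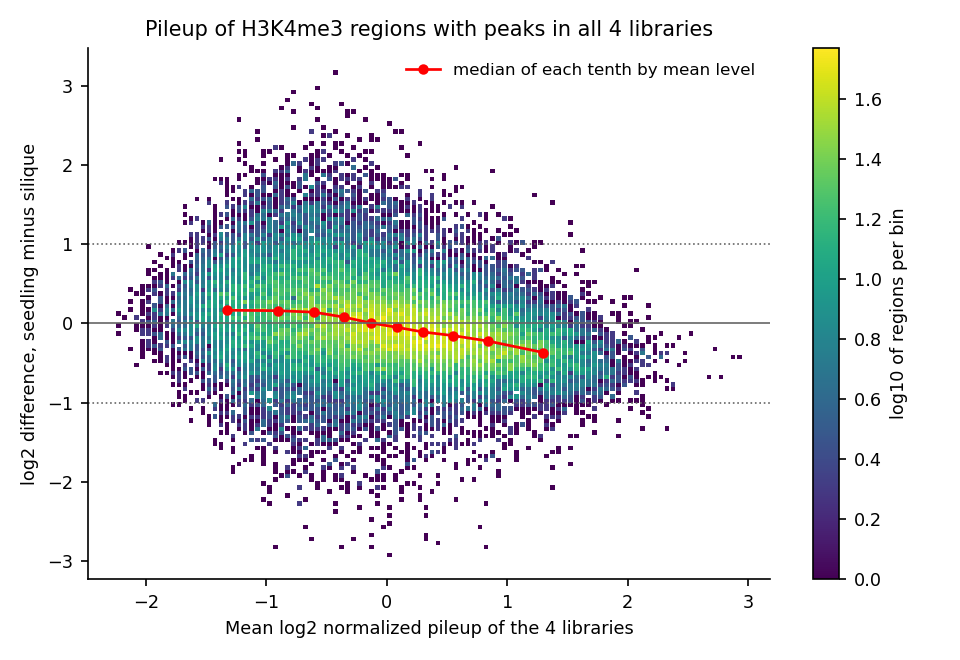
The log2 difference of normalized pileup, seedling minus silique (y axis), against the mean log2 level of the 4 libraries (x axis) for 39725 shared regions, coloured by the number of regions per bin, with the median of each of 10 level classes in red. The red line is at 0.17 in the lowest class and -0.37 in the highest, while single regions reach about 3 in either direction.

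The shared regions with the clearest excess in seedling were strong there and close to the calling limit in silique. On sequence 14 from 18410510 to 18412191, normalized pileup was 2.38 and 2.14 in seedling, against 0.218 and 0.28 in silique. The groups lay far apart, with a log2 difference of 3.19 (SE 0.15, limma adjusted p = 4.41e-07). Peaks there spanned 1646 and 1672 bp in seedling, against 427 and 456 bp in silique, and 1 silique library had H3K27me3 there. On sequence 13 from 9350745 to 9352007 the levels were 1.82 and 1.96 in seedling, against 0.233 and 0.24 in silique (log2 difference 3.00, SE 0.13). On sequence 3 from 6691554 to 6692711 they were 1.70 and 1.56 in seedling, against 0.211 and 0.22 in silique. This region had no H3K4me3 peak in flower bud and carried H3K27me3 in both flower bud libraries and 1 silique library, but in no seedling library. The region on sequence 13 from 28079750 to 28081415 had 1.68 and 1.72 in seedling, against 0.256 and 0.26 in silique, and H3K27me3 in both silique libraries and no seedling library. That on sequence 7 from 9896669 to 9898362 had 1.58 and 1.85 in seedling, against 0.248 and 0.25 in silique.

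The regions with the clearest deficit in seedling stood above the median shared level in both silique libraries. On sequence 17 from 47264861 to 47267244, normalized pileup was 0.368 and 0.378 in seedling, against 3.19 and 2.48 in silique. The log2 difference was -2.91 (SE 0.15, limma adjusted p = 4.41e-07), and widths were 468 and 660 bp in seedling, against 2347 and 2359 bp in silique. On sequence 2 from 4225635 to 4227309 the levels were 0.697 and 0.633 in seedling, against 4.77 and 4.54 in silique (log2 difference -2.81, SE 0.13). This region carried H3K27me3 in both seedling and both flower bud libraries and in no silique library. It lay 40.8 kb from the leading silique-restricted region of the same sequence. The region on sequence 9 from 42182323 to 42184367 had 0.526 and 0.449 in seedling, against 3.14 and 3.32 in silique. That on sequence 13 from 12531819 to 12533825 had 0.5 and 0.520 in seedling, against 4.04 and 3.08 in silique. That on sequence 12 from 22771818 to 22772954 had 0.211 and 0.184 in seedling, against 1.53 and 1.24 in silique. Neither these 3 nor the region of sequence 17 overlapped H3K27me3 in any library. All 10 of these named differences passed under every alternative fit run (largest limma adjusted p = 1.98e-06). They were chosen for the largest gap in the same values, so passing was close to fixed in advance and adds no support.

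Width differed less clearly than height, and its direction rested on silique replicate 1. Here width is the summed length of a library's peaks in a shared region. At an adjusted p under 0.05 in limma, 1446 shared regions (3.64%) were wider in seedling and 3575 (9.00%) narrower, 12.6% in all. The median log2 width difference was -0.19, whereas silique replicate 1 exceeded silique replicate 2 by a median of 0.26. Without silique replicate 1, 976 regions were wider and 554 narrower, and the median was -0.05. The counts were 544 wider and 718 narrower without seedling replicate 1, 420 and 1376 without seedling replicate 2, and 1121 and 9179 without silique replicate 2. With each library centred on its own median, 4761 regions were wider and 3076 narrower, 60.8% and not 28.8% of those called. Regions that held both with all libraries and without silique replicate 1 numbered 886 wider and 554 narrower in seedling. Of the 886, 805 also had a higher pileup in seedling, and of the 554, 478 had a lower one. Height and width come from the same peaks, and the calling threshold ties them.

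**Figure D3:**
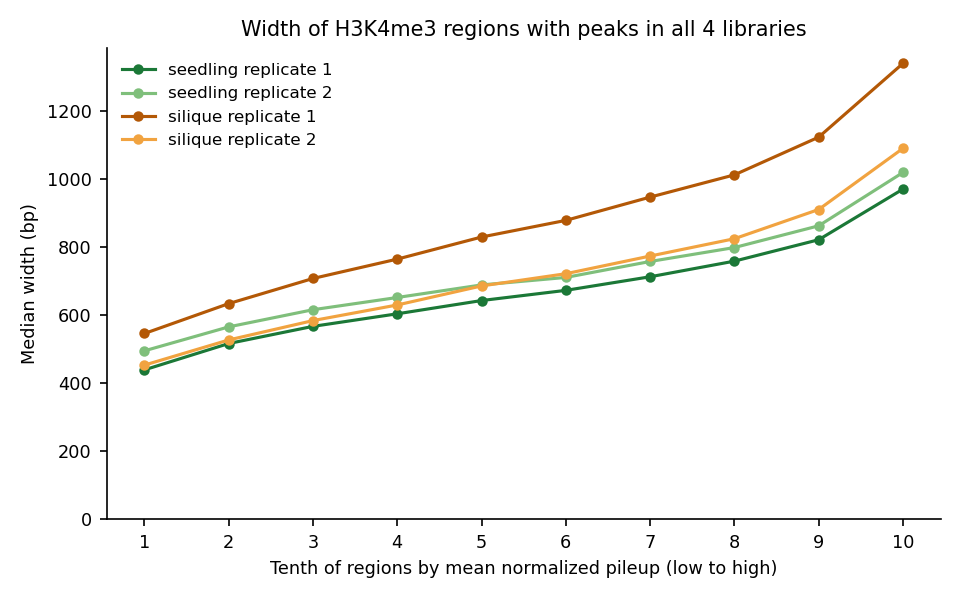
Median width in bp (y axis) of shared regions in 10 classes of mean normalized pileup, low to high (x axis), 1 line per library. Silique replicate 1 lies above the others throughout, at 546 bp in the lowest and 1341 bp in the highest class, while silique replicate 2 passes from between the seedling lines to above them, at 1091 bp against 971 and 1020 bp.

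Some regions were far wider in one tissue at nearly equal height. The widest of them lay on sequence 12 from 31648586 to 31652965 and spanned 4096 and 4380 bp in seedling, against 2109 and 2001 bp in silique. The log2 width difference was 1.04 (SE 0.20, limma adjusted p = 9.53e-06). Normalized pileup there was 1.46 and 1.5 in seedling, against 1.33 and 1.38 in silique (limma adjusted p = 0.450). On sequence 5 from 24000130 to 24003792, widths were 3262 and 3639 bp in seedling, against 1481 and 1524 bp in silique. Pileup there was 2.05 and 1.83 in seedling, against 2.04 and 1.75 in silique. At least 1 library had more than 1 peak in this region. Its log2 width difference was 1.20 by summed length, and 1.04 from the first to the last base of each library's peaks. Pileup was not called at 21587 of all 39725 shared regions, and a missing call does not mean equal height. Smaller shares of the regions called for width lacked a pileup call, 119 (8.23%) of the 1446 wider and 790 (22.1%) of the 3575 narrower. Of the regions whose width was called both with all libraries and without silique replicate 1, this held for 77 wider and 73 narrower.

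The other regions named for a greater width in seedling were also taller there. On sequence 1 from 524492 to 527154 widths were 2601 and 2663 bp in seedling, against 633 and 672 bp in silique. On sequence 5 from 3468943 to 3471452 they were 2459 and 2506 bp in seedling, against 660 and 602 bp in silique. Neither of these had an H3K4me3 peak in flower bud. On sequence 8 from 19180063 to 19182560 they were 1936 and 2498 bp in seedling, against 405 and 345 bp in silique.

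The regions named for a smaller width in seedling were broad blocks in silique, and each was also called lower in pileup in seedling. On sequence 14 from 5991561 to 5995098 widths were 597 and 722 bp in seedling, against 3524 and 3270 bp in silique, while the log2 difference of pileup was -0.43 (SE 0.14). On sequence 11 from 9158098 to 9161767 they were 668 and 890 bp in seedling, against 3670 and 3246 bp in silique. On sequence 5 from 3446417 to 3449896 they were 1233 and 1016 bp in seedling, against 3480 and 3344 bp in silique. This block lay 19 kb from the region of sequence 5 that was wider in seedling, so neighbours differed in opposite directions. On sequence 11 from 241625 to 244726 widths were 322 and 263 bp in seedling, against 3022 and 2376 bp in silique, and on sequence 9 from 26748553 to 26751550 they were 738 and 694 bp in seedling, against 2998 and 2631 bp in silique. For the regions after the first, the log2 differences of pileup were -0.83, -0.90, -2.27 and -0.91, in the order given. None of the 10 regions named for width carried H3K27me3 in any library. All 10 kept their call under each alternative fit of the 4 libraries in which they were tested. They were chosen for the largest width gap in the same values, so keeping it was close to fixed in advance and adds no support.

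In part of the regions called for width, most of the difference lay at one edge. For each region the shift of its left edge and of its right edge was taken between the tissue means. At least 80% of the difference lay at one edge in 592 (40.9%) of all 1446 wider regions and in 1215 (34%) of all 3575 narrower regions. Among the 340 regions wider in seedling by at least 1 on the log2 scale (0.856% of those tested), the larger edge shift had a median of 518 bp and the smaller 137 bp, and in 161 (47.4%) at least 80% of the gain lay at one edge. Among the 669 narrower by this margin (1.68%), the medians were 515 and 128 bp, and 340 (50.8%) had at least 80% at one edge. These counts rest on silique replicate 1: without it 545 regions were wider and 314 narrower by this margin, and edges were not computed for that setting. By median distance, summits lay only slightly farther apart between the tissues than within them. Between single libraries of different tissues the median distance was 35 to 41 bp, and between libraries of the same tissue 33 and 34 bp. Between the tissue means, which average 2 libraries each and are not comparable with these distances, the median was 30 bp over all shared regions. It was 56 bp in those wider and 54.5 bp in those narrower in seedling by at least 1 on the log2 scale.

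The strongest shared regions were strong in every library and somewhat lower in seedling. On sequence 2 from 4287911 to 4291174, normalized pileup was 6.41 and 6.45 in seedling, against 8.60 and 8.91 in silique. On sequence 11 from 3930256 to 3932406 it was 6.25 and 6.30 in seedling, against 8.93 and 7.94 in silique, and on sequence 5 from 29495954 to 29497978 it was 5.78 and 5.04 in seedling, against 8.41 and 9 in silique. The log2 differences of -0.45, -0.42 and -0.69 passed in limma (adjusted p = 0.0150, 0.0219 and 0.00161). After cyclic loess they were 0.30, 0.31 and 0.03 and none passed (adjusted p = 0.0872, 0.0849 and 0.892). The widest shared regions were those with the largest mean width over the 4 libraries, a choice that favours regions wide in every library, so their widths are given as values alone. On sequence 11 from 3036191 to 3040333 they were 3859 and 3805 bp in seedling, against 3837 and 3551 bp in silique. On sequence 3 from 2638902 to 2642724 they were 3600 and 3639 bp in seedling, against 3621 and 3591 bp in silique, and on sequence 1 from 2533890 to 2537757 they were 3664 and 3646 bp in seedling, against 3426 and 3610 bp in silique. Their log2 width differences were 0.05, 0.01 and 0.06 (SE 0.20 each).

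Flower bud, which took no part in choosing these regions, shared more of the silique-restricted set. Of the seedling-restricted regions, 1136 (23.6%) had H3K4me3 in both flower bud libraries and 3244 (67.3%) in neither. Of the silique-restricted regions 662 (43.9%) had it in both and 687 (45.6%) in neither. Shared regions had it in both in 95.4% of cases. At the 1267 shared regions lower in seedling by at least 1 and present in flower bud, the flower bud mean was nearer to seedling in 425 (33.5%). At the 1680 regions higher by this margin it was nearer to seedling in 883 (52.6%), against 49.2% of all 37900 shared regions present in flower bud. Flower bud libraries carry later numbers, as silique libraries do, and the part of this in the likeness was not tested.

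H3K27me3 in seedling was more frequent where H3K4me3 was restricted to silique than where it was restricted to seedling. In the seedling H3K27me3 libraries, peaks overlapped 9.75% and 7.76% of seedling-restricted regions, and 24.3% and 21.4% of silique-restricted regions. In the silique H3K27me3 libraries the shares were alike, at 18.5% and 10.4% of seedling-restricted regions, and 19% and 10.5% of silique-restricted regions. In flower bud they were 20.2% and 20.7% of seedling-restricted regions, and 25.5% and 26.5% of silique-restricted regions. Shared regions overlapped H3K27me3 in 1.11% to 3.23% of cases, and the lowest of the 10 level classes in 3.45% to 8.43%. For this mark the fragments after filtering were 3647059 and 3479885 for seedling libraries, 11513204 and 10929797 for flower bud libraries, and 7441109 and 2654588 for silique libraries, and silique replicate 1, the deeper, had the higher shares of its tissue. Shares are therefore comparable within a library and not between libraries.

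Regions were also sorted by whether H3K27me3 was called in both libraries of one tissue and neither of the other, a comparison of libraries that differed in depth. Among seedling-restricted regions, 150 (3.11%) had it in silique in this way and 8 (0.166%) in seedling. Among silique-restricted regions, 66 (4.38%) had it in seedling and 1 in silique. Among shared regions, 90 (0.227%) had it in silique and 63 (0.159%) in seedling, and the part of depth in these counts was not tested. H3K27me3 in all 4 libraries of seedling and silique was found at 285 seedling-restricted regions (5.91%) and 152 silique-restricted regions (10.1%). No H3K27me3 peak in these 4 libraries was found at 80.9% of seedling-restricted and 73.9% of silique-restricted regions.

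**Figure D4:**
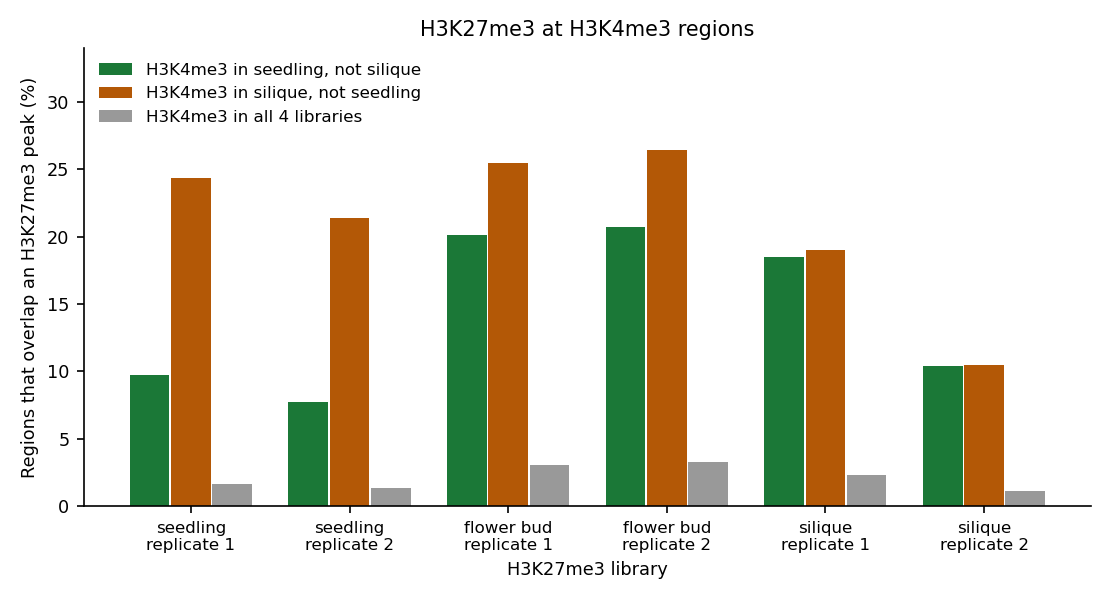
Percentage of H3K4me3 regions of each class (bars) that overlap an H3K27me3 peak by at least 1 bp (y axis) in each of 6 H3K27me3 libraries (x axis). In the seedling libraries the bars of silique-restricted regions reach 24.3% and 21.4%, those of seedling-restricted regions 9.75% and 7.76%, and in the silique libraries the 2 bars are level.

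The height of H3K4me3 was set beside H3K27me3 where both tissues had an H3K4me3 peak. At 90 shared regions H3K27me3 was in both silique and no seedling library, and 64 of them (71.1%) had a higher H3K4me3 pileup in seedling, against 20.8% of all shared regions. Median normalized pileup at these 90 was 1.06 and 1.03 in seedling, and 0.541 and 0.53 in silique. At 63 shared regions H3K27me3 was in both seedling and no silique library, and 36 (57.1%) had a lower pileup in seedling, against 24.8% of all. Their medians were 0.632 and 0.561 in seedling, and 0.962 and 1.04 in silique. Without silique replicate 1 the counts were 60 and 30. At 308 shared regions with H3K27me3 in both libraries of both tissues, 107 (34.7%) were higher and 79 (25.6%) lower in seedling. After cyclic loess these became 90 (29.2%) and 92 (29.9%), against 20.3% and 19.2% of all shared regions. The counts of 64 higher of 90 and 36 lower of 63 became 61 and 36. These are shares beside the background of all shared regions, and the difference was not tested.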

How the data were processed

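One peak list per library was deposited. Per the file headers, the authors ran MACS 2.2.7.1 for narrow peaks from paired-end data, with a q-value cutoff of 1e-05 (the q-value is deposited as −log10), against one merged control of 12042843 fragments. The submitters' processing notes name BWA, SAMtools and GATK besides MACS2. Pileup, as deposited by the authors, is the signal (fragment coverage) under a summit. Fold enrichment is a ratio made by the authors' peak caller for each peak, and widths are deposited in bp. Calls differ in depth with the fragments per library, and a missing peak means only that the caller made no call.

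Peaks of the 4 lists were merged at 1 bp of overlap. A region took the highest pileup and the summed length of each library's peaks. Regions with peaks in all 4 libraries were tested with limma 3.58.1 (R 4.3.3) on log2 normalized pileup and log2 width, seedling minus silique, with Benjamini-Hochberg adjustment over 39725 regions and a threshold of 0.05. For width, limma estimated one variance for all regions, so each SE is the same. For list values, exact permutation was run two-sided over 6 arrangements. The fit was tested on simulated data. Named regions were the 5 restricted to each tissue with the highest lower normalized pileup of its libraries, the 5 each way with the largest smallest gap between tissues in pileup or width among those called, the 3 strongest and 3 widest shared regions, and the 3 densest windows of 100 kb. The comparison, its regions and lists were chosen with earlier results of these data known. Calculations ran in Python 3.11.15 (scipy 1.17.1, pandas 2.3.3, numpy 2.4.6).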

Additional observations from a re-analysis of the deposited data

How the results depend on the processing

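No paired analysis was possible because the labels give the libraries no replicate numbers. Counts of regions in all 4 libraries stayed within 1.5 times of 39725 under every setting run (36685 to 41062, leaving out single libraries 39913 to 41062). Lists of equal length gave 2742 regions restricted to seedling and 2818 to silique, and by construction this setting shortens the seedling lists most. Coverage of 50% of the region gave 2471 for silique. A normalized pileup of 0.5 or more in both libraries, chosen after the data were seen, gave 1417 and 367. Leaving out single libraries gave 5341 to 6228 for seedling and 1693 to 2109 for silique, under the looser rule that the remaining library decides for its tissue.

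Counts of regions higher and lower in pileup stayed within 1.5 times under other scalings, fold enrichment, single-peak regions and limma-trend. These settings gave 7242 to 8440 higher and 7636 to 11336 lower. With single libraries left out, the counts also stayed within 1.5 times. The requirement of 1 on the log2 scale, chosen after the data were seen, left 1996 and 1329 for pileup and 340 and 669 for width. Without silique replicate 1 it left 545 wider and 314 narrower, which turned the order. Centring gave 4761 wider, and leaving out single libraries gave 420 to 1121 wider and 554 to 9179 narrower. The highest of these was without silique replicate 2. With a library left out, limma assumes that the lone library of that tissue varies like the other tissue's pair. The median log2 width difference ran from -0.32 to -0.05, that of list median widths from -201 to -37 bp, and that of peak number from 4003.5 to 5283.5 without single libraries. The difference of covered length ran from -5.24 to 1.56 Mb, reversed to 1.56 Mb without silique replicate 1. An equal number of peaks gives no difference in peak number and was not run for it. Depth limits what can be called: the weakest peaks lay near 0.15 of the median shared level, and lower signal is not in the lists.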

Other observations

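Neighbouring shared regions were nearly independent in how seedling and silique differed. Across adjacent pairs less than 1000 bp apart, the log2 differences of pileup had a Pearson r of 0.0879 over 1480 pairs, and for gaps of 1000 to 2000 bp r was 0.109 over 3218 pairs. For gaps over 50000 bp it was 0.0383 over 3721 pairs. The sign was the same in 54.1% of the closest pairs and 52.6% of the farthest. The pairs share libraries and the control, and the values are descriptions.

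A stretch near the start of sequence 2 held 3 of the named regions, the silique-restricted region at 4183292, the region lower in seedling at 4225635 and the strongest shared region at 4287911. The gaps between them were 40.8 and 60.6 kb. The first and second carried H3K27me3 in both seedling libraries, and the strongest shared region carried it in no library.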
